A study of Homo sapiens with 6 samples.

Results

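The comparison set the 2 dishes of MCF10A cells plated at 100K and 200K against the 2 plated at 400K and 600K, where the label is the number of cells seeded per 35 mm dish and K stands for kilo. For each gene the deposited expression ratio to the 50K dish was put on a log2 scale, and a gene was taken as separated when both arrays of one side lay beyond both arrays of the other. Of 19775 genes measured, 3734 (18.9%) were separated and higher at 400K and 600K, 4867 (24.6%) were separated and lower, and the sides of the remaining 11174 overlapped. MCF10A is an immortalised breast epithelial line that does not form tumours. All 6 dishes of the series (50K, 100K, 200K, 400K, 600K and 800K) received the same medium, DMEM/F12 with 5% horse serum, 20 ng/ml EGF, 0.5 µg/ml hydrocortisone, cholera toxin, insulin and gentamicin. They were harvested 24 h after plating, so density was the single variable the labels name. Each dish's RNA was hybridised to 1 Affymetrix HG-U133 Plus 2 array, which gives 1 array per density and no replicate of any.

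In sparse culture, epithelial cells spread, pull on their matrix and divide, with the cofactors YAP and TAZ in the nucleus, where they act on TEAD factors. As a culture fills, cells form junctions, YAP and TAZ leave the nucleus, the cell cycle slows and keratinocyte-type cells begin to make differentiation products. Shortage of amino acids is read in many cell types by the kinase GCN2, which raises the translation of the transcription factor ATF4 and through it the genes of amino acid synthesis, uptake and tRNA charging.

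At 400K and 600K the genes of amino acid stress, serine synthesis and part of tRNA charging were higher than at 100K and 200K, led by CHAC1 (5.43-fold), SLC6A9 (4.33-fold), NUPR1 (4.47-fold) and PHGDH (3.86-fold). Most of them were lower again at 800K. Genes listed under keratinocyte differentiation and defence were also higher, along a course that went on to 800K. Examples were ZNF750 (7.38-fold), the basal keratin KRT15 (7.07-fold) and S100A8 (5.47-fold). Nearly every DNA replication gene was lower (38 of 39), as were most targets of YAP and TAZ (19 of 24), with CCNE2 3.01-fold lower in the first list and CCN2 3.11-fold lower in the second.

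Because the arrays of a side came from different plating densities, the spread within a side holds the response to density as well as differences between dishes and arrays. No gene passed the limma test of the side difference (0% at an adjusted p under 0.05). The smallest adjusted p was 0.17, and 3747 genes lay under an unadjusted p of 0.05, of which 1596 were higher at 400K and 600K. An exact permutation test of 2 arrays against 2 cannot give a two-sided p under 0.33. A limma fit that took the lower and the higher density of each side as a block, which assumes that the step from 100K to 200K equals the step from 400K to 600K, called 1108 genes higher (5.6%) and 1344 lower (6.8%). Values below are therefore given as descriptions of these dishes. Each is a log2 ratio to the 50K dish, each difference is the mean at 400K and 600K minus the mean at 100K and 200K with the limma standard error (SE, 2 arrays a side), and the ratios carry no absolute level. The labels do not say whether the dishes were separate experiments. In bulk RNA, fewer cells with a transcript and less of it per cell cannot be told apart.

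Most of the separated genes were separated narrowly. The gap, meaning the distance between the nearest arrays of the 2 sides, had a median of 0.0963 log2 units, and 4384 separated genes had a gap under 0.1. A gap of 0.5 or more was found for 225 genes that were higher at 400K and 600K (1.14%) and for 149 that were lower (0.753%). A gap of 1 or more left 37 higher and 10 lower genes, so the widest separations lay on the higher side. Separated genes with a side difference of at least 2-fold numbered 126 higher (0.637%) and 60 lower (0.303%). At the edge of the rule, PCYOX1L and ADAM9 were separated with a gap of 0.00, and the sides of EPCIP touched. The control probe sets give a measure of technical drift. Among 24 poly-A control probe sets 5 were separated and higher and 6 lower, with a largest gap of 0.34, and among 18 hybridisation controls 1 was higher and 12 lower, with a largest gap of 0.23. None of them reached a gap of 0.5.

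**Figure D1:**
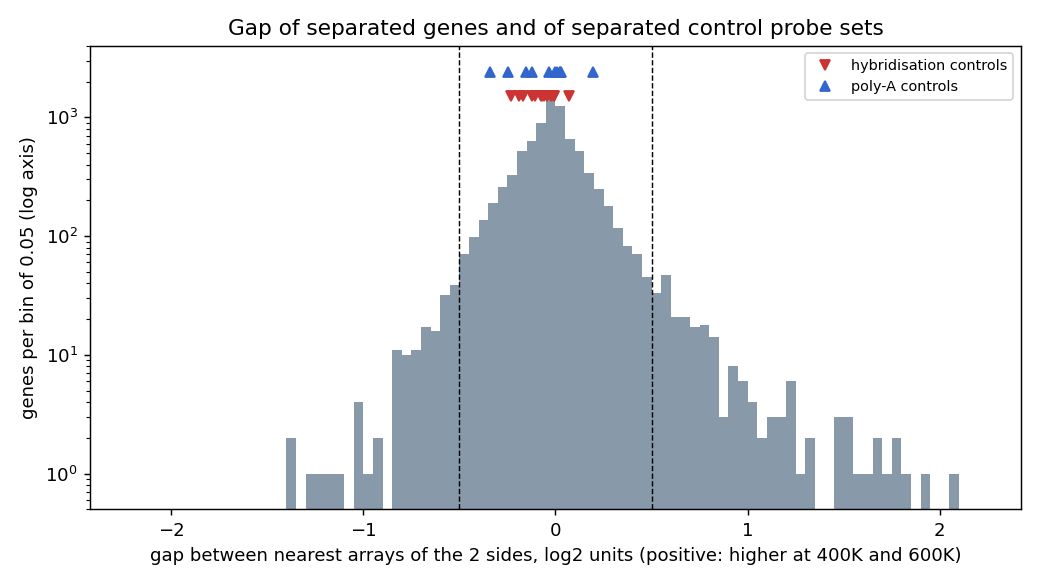
Histogram of the gap between the nearest arrays of the 2 sides for separated genes, in log2 units on the horizontal axis and genes per bin on a log vertical axis. Triangles above the bars mark separated control probe sets, all inside the dashed lines at 0.5, and the higher tail on the right reaches farther than the lower tail.

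The gene with the widest gap among protein-coding genes was ZNF750, a transcription factor of epidermal differentiation. Its log2 ratios were -0.50 and 1.12 at 100K and 200K and 3.07 and 3.33 at 400K and 600K, a difference of 2.88 ± 0.58 or 7.38-fold. The next widest were SLC6A9, a glycine transporter, BBOX1, the last enzyme of carnitine synthesis, and NUPR1, a stress-induced chromatin protein. BBOX1 read 0.16 and 1.21 at 100K and 200K and 3.01 and 4.27 at 400K and 600K, so it was higher at each step, and 800K was higher again at 4.77. The list went on with CHAC1, FSIP1, S100A8, ABCA6, PCK2, SERPINA3, FGFR3 and KRT15. ZNF750, SLC6A9, NUPR1 and FGFR3 were measured only by probe sets that can bind several transcripts. Among the 12 protein-coding genes with the widest gap whose probe sets all pointed one way, SLC6A9, NUPR1, CHAC1 and PCK2 belong to amino acid stress, handling or metabolism. ZNF750, S100A8 and the basal keratin KRT15 stand in the keratinocyte differentiation list. FSIP1, a fibrous sheath-interacting protein, read -0.26 and -0.03 at 100K and 200K and 1.65 and 2.06 at 400K and 600K. FGFR3, a fibroblast growth factor receptor, read 0.67 and 1.12 at 100K and 200K and 2.64 and 3.32 at 400K and 600K. ABCA6, a lipid transporter, read 0.10 and 1.07 at 100K and 200K and 2.68 and 3.07 at 400K and 600K. In all 3 the higher pair lay at least 1.52 log2 units above the lower pair.

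On the other side, EVA1A, a regulator of autophagy, had the widest gap. It read -0.22 and -0.70 at 100K and 200K and -2.08 and -2.18 at 400K and 600K, a difference of -1.67 ± 0.18 or 3.19-fold lower. SPHK1, the kinase that makes sphingosine 1-phosphate, read -0.84 and -1.50 at 100K and 200K and -2.87 and -3.22 at 400K and 600K. CCBE1, a secreted factor that helps to process the lymphatic growth factor VEGFC, read -0.47 and -0.91 at 100K and 200K and -2.19 and -3.00 at 400K and 600K. In SPHK1 and CCBE1 the value at 200K already lay below that at 100K, whereas KRT80, a keratin, was near its 50K level on the lower side and read 0.02 and -0.08 at 100K and 200K and -1.29 and -1.61 at 400K and 600K. The others of the 12 were CDC25A, PMEPA1, DKK1, IL7R, MTCL1, PLCB4, FAM111B and CCNE2. EVA1A and SPHK1 were each measured only by a probe set that can bind several transcripts. DKK1, a secreted Wnt antagonist, differed by -1.61 ± 0.29, and IL7R, the interleukin 7 receptor chain, by -1.71 ± 0.46. IL7R had most of its range within the lower side, from -0.98 at 100K to -2.27 at 200K, and its step between 200K and 400K did not exceed a straight line in log2 density (-0.01 ± 0.70, SE). MTCL1, a microtubule-crosslinking protein, was flat within both sides at -0.56 and -0.54 at 100K and 200K and -1.57 and -1.57 at 400K and 600K.

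Genes of the ATF4 and amino acid stress list were higher as a group. Of its 36 measured members 26 were separated and higher and 2 lower, beside 18.9% higher and 24.6% lower among all genes. The same shares stand beside every list count below. A gap of 0.5 or more was found for 18 of the 26, against 1.14% of all genes. The median side difference of the list was 0.65, and that of all genes -0.01. The list's median log2 ratio was 0.08 and 0.09 in the arrays of the lower side, 0.87 (400K) and 0.68 (600K) in those of the upper side and 0.36 in the 800K array. In 15 of the 26 the highest of all 6 arrays was 400K, in 10 it was 600K and in 1 it was 800K. Among all 3734 genes separated and higher, 800K was the highest array in 1758.

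ATF4 itself, the transcription factor of the response, read 0.14 and 0.05 at 100K and 200K and 0.92 and 0.85 at 400K and 600K, a difference of 0.79 ± 0.06. Its value at 800K, 0.57, lay between the sides. Within the list the largest difference was that of CHAC1, an enzyme that degrades glutathione. CHAC1 read 0.64 and 0.34 at 100K and 200K and 3.52 and 2.35 at 400K and 600K, a difference of 2.44 ± 0.43 or 5.43-fold, and it was back at 1.06 at 800K. TRIB3, a pseudokinase that feeds back on ATF4, read 0.06 and 0.34 at 100K and 200K and 1.74 and 1.28 at 400K and 600K and 0.50 at 800K. NUPR1 read 0.44 and 0.82 at 100K and 200K and 2.60 and 2.98 at 400K and 600K. EIF4EBP1, an inhibitor of cap-dependent translation, read 0.11 and 0.09 at 100K and 200K and 0.84 and 1.07 at 400K and 600K. SESN2, which restrains the kinase mTORC1 when leucine is short, read -0.01 and 0.15 at 100K and 200K and 1.86 and 0.74 at 400K and 600K, so that its 2 upper arrays differed by more than 1 log2 unit. VEGFA, an angiogenic growth factor that is also an ATF4 target, read 0.04 and 0.03 at 100K and 200K and 0.90 and 0.75 at 400K and 600K. DDIT3, the gene of the pro-apoptotic factor CHOP, overlapped at 0.07 and -0.22 at 100K and 200K and 0.33 and 0.07 at 400K and 600K. ATF5 was separated in the lower direction with a difference of -0.26 ± 0.10. Its probe sets differed by -0.76, -0.28, -0.014 and 0.011, and only the first was separated.

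The enzymes of serine synthesis and of the one-carbon pathway it feeds were also higher. PHGDH, the first enzyme of serine synthesis, read 0.04 and 0.25 at 100K and 200K and 1.72 and 2.46 at 400K and 600K, a difference of 1.95 ± 0.27 or 3.86-fold. PSAT1, the second enzyme, read 0.16 and 0.21 at 100K and 200K and 1.54 and 1.74 at 400K and 600K. PSPH, the last, read -0.27 and 0.03 at 100K and 200K and 1.02 and 0.64 at 400K and 600K, with 2 of its 3 probe sets pointing the same way. All 3 steps of the pathway were thus higher at 400K and 600K. In mitochondrial one-carbon metabolism ALDH1L2 read -0.09 and 0.39 at 100K and 200K and 1.71 and 2.00 at 400K and 600K. MTHFD2 read -0.02 and -0.17 at 100K and 200K and 0.53 and 0.50 at 400K and 600K. SHMT2, which moves a carbon from serine to folate, was separated with a smaller gap of 0.43. ASNS, asparagine synthetase, read 0.26 and 0.31 at 100K and 200K and 1.42 and 1.80 at 400K and 600K. Some probe sets can bind several transcripts (suffixes _x_at and _s_at), and without them the difference of ASNS was 0.024 in place of 1.33 ± 0.14 and that of PSPH 1.58 in place of 0.95 ± 0.18. The ASNS probe set left was nearly flat, at 0.32 and 0.30 at 100K and 200K and 0.34 and 0.33 at 400K and 600K. The one left out differed by 2.63. Of the 18 genes of the ATF4 list with a gap of 0.5 or more, 14 had other probe sets, and 10 of these had such a gap on those alone (not ASNS, CARS1, GDF15 or SLFN5). Genes measured only by _x_at or _s_at probe sets could not be checked this way. Among them were NUPR1, PSAT1, SLC6A9, GARS1, ZNF750, FGFR3, TXNIP, EVA1A and SPHK1. CBS, which makes cystathionine from serine and homocysteine, read 0.27 and 0.21 at 100K and 200K and 1.50 and 2.13 at 400K and 600K. PCK2, the mitochondrial phosphoenolpyruvate carboxykinase, read 0.17 and -0.06 at 100K and 200K and 1.72 and 2.08 at 400K and 600K. CASTOR1, the arginine sensor upstream of mTORC1, read -0.02 and -0.10 at 100K and 200K and 1.45 and 1.45 at 400K and 600K. CASTOR1 differed by 1.51 ± 0.06, and 800K was the highest array at 1.81. The 2 arrays of each side nearly coincided only in the mean of its probe sets, which moved in opposite directions within each side. One read 0.03 and -0.30 at 100K and 200K and 1.84 and 1.42 at 400K and 600K. The other read -0.07 and 0.09 at 100K and 200K and 1.07 and 1.49 at 400K and 600K.

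Amino acid transporters were mixed, with 11 of 20 separated and higher, 3 lower and 4 at a gap of 0.5 or more. SLC6A9, which takes up glycine, read 0.27 and 0.54 at 100K and 200K and 2.35 and 2.69 at 400K and 600K, a difference of 2.11 ± 0.16 or 4.33-fold. SLC7A11, the cystine and glutamate exchanger, read -0.38 and -0.86 at 100K and 200K and 0.87 and 0.19 at 400K and 600K and -1.50 at 800K, so it was above its 50K level at 400K and 600K only. Its side difference was 1.15 ± 0.29. SLC1A5, a glutamine transporter, read 0.28 and 0.22 at 100K and 200K and 0.90 and 0.82 at 400K and 600K, and was at 0.26 at 800K, inside the lower side. SLC1A4, a carrier of alanine, serine and cysteine, differed by 1.22 ± 0.08 over 5 probe sets, but its difference was -0.0034 when the _x_at and _s_at probe sets were left out. The probe set then left was flat (0.04 at both 100K and 600K), and those left out differed by between 0.0001 and 2.83. SLC7A5, which carries large neutral amino acids, was separated by a gap of only 0.01 in the lower direction.

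Among 17 cytosolic aminoacyl-tRNA synthetases, which load amino acids onto tRNA, 11 were separated and higher and 6 lower, so none overlapped. The 5 with a gap of 0.5 or more were all higher, and their differences were 0.97 ± 0.08 for GARS1 (glycine), 0.86 ± 0.07 for SARS1 (serine), 0.70 ± 0.10 for CARS1 (cysteine), 0.64 ± 0.06 for YARS1 (tyrosine) and 0.61 ± 0.07 for AARS1 (alanine). GARS1 read 0.10 and -0.03 at 100K and 200K and 0.95 and 1.07 at 400K and 600K, and 0.49 at 800K. All 5 lay between the sides at 800K. Both subunits of the phenylalanine enzyme were lower, with FARSA at -0.14 and -0.11 at 100K and 200K and -0.57 and -0.79 at 400K and 600K and FARSB differing by -0.46 ± 0.13. Without the _x_at and _s_at probe sets the difference of CARS1 was 0.36, with a gap of 0.20, and that of FARSB -0.84. The synthetase genes thus divided within 1 enzyme family. Over the 3 amino acid lists, counting each gene once, 26 of 72 measured genes had a gap of 0.5 or more in the higher direction and 0 in the lower.

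**Figure D2:**
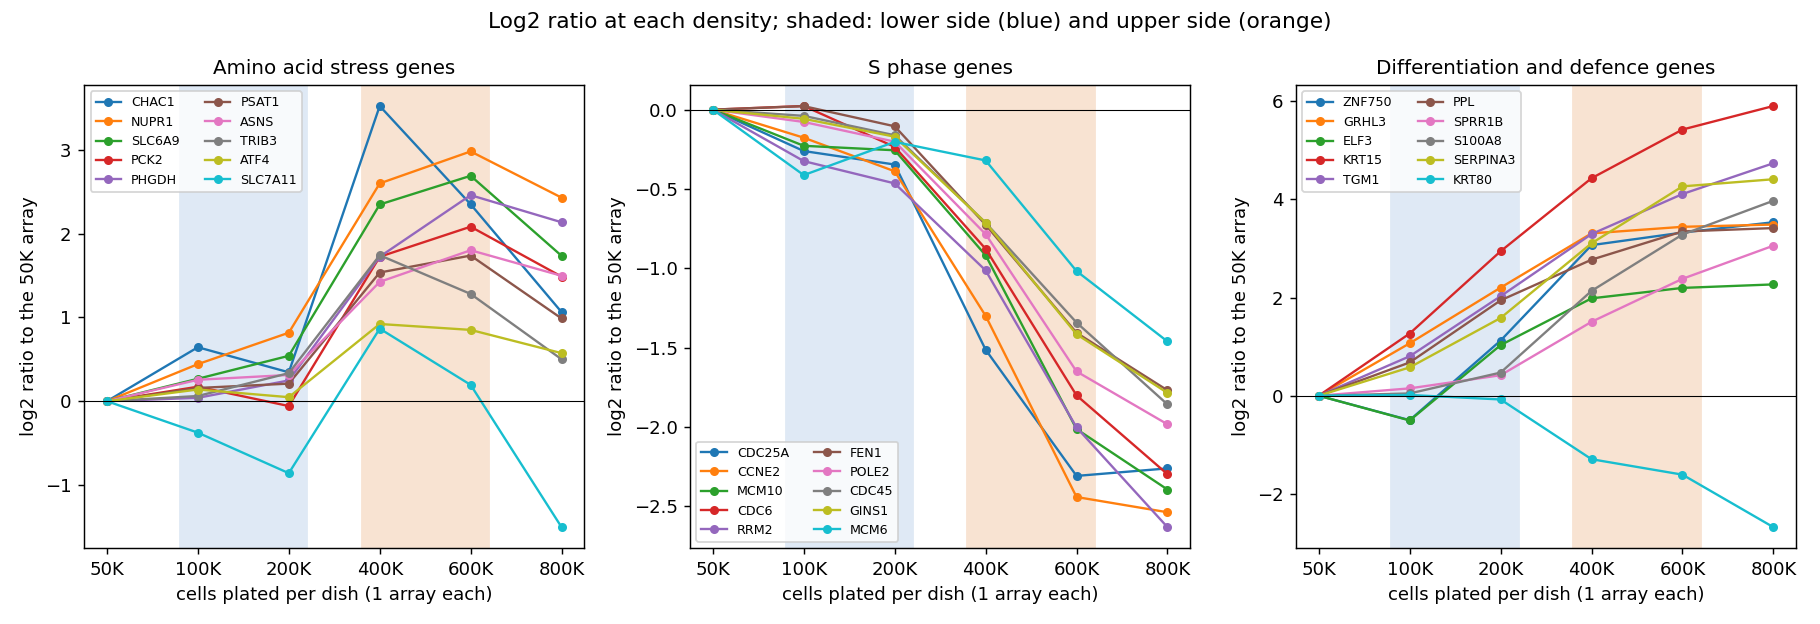
Log2 ratio to the 50K array (vertical axis) at each plating density (horizontal axis, 1 array each) for 10 genes of each of 3 groups, with the lower side shaded blue and the upper side orange. Amino acid stress genes lay between -0.86 and 0.82 at 200K and were highest at 400K or 600K, S phase genes were lower at 600K than at 400K, and the differentiation and defence genes other than KRT80 were highest at 800K.

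ATF4 acts with C/EBP factors at a composite DNA element whose core is written TGATGNAA here. These letters or their reverse complement, TTNCATCA, were sought on both strands in the 250 bases before each RefSeq gene start (GRCh38.p14). They stood in 3.14% of the 35116 windows of the table. Of the 26 amino acid genes with a gap of 0.5 or more, 18 had at least 1 window, 30 in all, and 5 windows (16.7%) held the letters, those of AARS1, ASNS, CHAC1, GARS1 and SLC1A5. The 3 stretches below are examples picked from genes described here that hold the letters. CHAC1 and ASNS are from the lists, and HERPUD1, a further stress gene, is not among the 26. CHAC1 lies on the plus strand (chr15:40953237-40953294) with the element 209 bases before its start, ASNS on the minus strand (chr7:97872444-97872501) with the element 68 bases before, and HERPUD1 on the plus strand (chr16:56931941-56931998) with the element 176 bases before. Each is written 5′ to 3′ in the sense of the gene with the matched letters in capitals, and a match is a description of the letters and not of binding.
CHAC1: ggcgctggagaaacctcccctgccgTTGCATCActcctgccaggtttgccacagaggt
ASNS: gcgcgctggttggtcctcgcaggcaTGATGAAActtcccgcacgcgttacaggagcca
HERPUD1: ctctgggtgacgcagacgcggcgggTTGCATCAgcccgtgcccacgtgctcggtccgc

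Within the unfolded protein response list the direction was mostly the opposite. Of 22 measured genes 14 were separated and lower and 5 higher, with a median side difference of -0.26. SDF2L1, a partner of chaperones in the endoplasmic reticulum, read -0.19 and -0.52 at 100K and 200K and -1.28 and -1.94 at 400K and 600K, a difference of -1.25 ± 0.26. CALR, the lectin chaperone calreticulin, read -0.10 and 0.02 at 100K and 200K and -0.64 and -0.94 at 400K and 600K. HSPA5, the main chaperone BiP, read -0.23 and -0.32 at 100K and 200K and -0.64 and -0.89 at 400K and 600K. HSP90B1 and MANF were separated in the same direction with differences of -0.53 ± 0.12 and -0.56 ± 0.09. HERPUD1, which takes part in degradation from the endoplasmic reticulum, was higher. HERPUD1 read 0.26 and 0.10 at 100K and 200K and 0.93 and 0.88 at 400K and 600K, and 0.40 at 800K. Its gap was 0.61, and 0.19 without the _x_at and _s_at probe sets. XBP1, a transcription factor of the response, was higher by 0.41 ± 0.10. In the heat shock list 0 of 17 genes were separated and higher and 11 were lower, with the co-chaperones DNAJA1 (-0.77 ± 0.14), FKBP4 (-0.60 ± 0.09) and STIP1 (-0.63 ± 0.14) and with HSPH1 (-0.56 ± 0.15) among them.

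Of 39 measured DNA replication and S phase genes, 38 were separated and lower and 0 higher, beside 24.6% lower among all genes. The median side difference was -0.65, and 10 had a gap of 0.5 or more. The list's median was -0.08 and -0.18 on the lower side, -0.56 (400K) and -1.06 (600K) on the upper side and -1.37 in the 800K array. The 800K array, which took no part in the comparison, lay below both upper arrays in 34 of the 38 genes. Of the 10 genes with a gap of 0.5 or more, the gap was wider than the range within either side in 2. By the list medians and the 800K count the course was graded through the upper densities.

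CDC25A, a phosphatase that opens the way into S phase and stands in none of the lists, read -0.26 and -0.35 at 100K and 200K and -1.51 and -2.31 at 400K and 600K, a difference of -1.61 ± 0.28 or 3.05-fold lower. Cyclin E2 (CCNE2), which acts at the same stage, read -0.18 and -0.39 at 100K and 200K and -1.30 and -2.44 at 400K and 600K. The arrays at 400K and 600K were farther apart than those at 100K and 200K in both. MCM10 and CDC6 load or activate the replicative helicase. MCM10 read -0.23 and -0.26 at 100K and 200K and -0.92 and -2.01 at 400K and 600K. CDC6 read 0.02 and -0.23 at 100K and 200K and -0.88 and -1.80 at 400K and 600K, so that in both the 600K array lay farther below 400K than 400K lay below 200K. RRM2, the small subunit of ribonucleotide reductase, read -0.32 and -0.47 at 100K and 200K and -1.01 and -2.00 at 400K and 600K, and -2.63 at 800K. FEN1, the flap nuclease of lagging strand synthesis, differed by -1.03 ± 0.25, POLE2, a polymerase epsilon subunit, by -1.08 ± 0.31, CDC45 by -0.93 ± 0.23 and GINS1 by -0.95 ± 0.25, the last 2 being parts of the helicase. MCM6 was the exception in the list, since 400K (-0.32) lay between 100K (-0.41) and 200K (-0.20) while 600K was at -1.02. FAM111B, a trypsin-like protease, was lower (a difference of -1.51 ± 0.36).

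Mitotic genes showed smaller separations in the same direction, with 27 of 36 lower, 0 higher and 1 at a gap of 0.5 or more. That gene was CDC20, an activator of the anaphase-promoting complex, at -0.07 and -0.26 at 100K and 200K and -0.80 and -1.15 at 400K and 600K. FOXM1, the transcription factor of mitotic genes, differed by -0.78 ± 0.22, BIRC5 by -0.61 ± 0.13 and AURKA by -0.40 ± 0.06. AURKA overlapped between the sides without the _x_at and _s_at probe sets (-0.22). The proliferation marker MKI67 read -0.21 and -0.16 at 100K and 200K and -0.46 and -0.94 at 400K and 600K, and -1.36 at 800K, so that its lowest array was outside the comparison.

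Of 20 genes of cell cycle inhibition and quiescence 12 were separated and higher and 3 lower. TXNIP, an inhibitor of thioredoxin and glucose uptake, read -0.01 and 0.39 at 100K and 200K and 1.61 and 1.90 at 400K and 600K, a difference of 1.56 ± 0.18 or 2.96-fold. RBL2, the pocket protein p130 of resting cells, read -0.22 and 0.05 at 100K and 200K and 0.63 and 0.66 at 400K and 600K, and its relative RBL1 was lower (a difference of -0.48 ± 0.09). CCNG2 and YPEL3 were the other 2 with a gap of 0.5 or more, with differences of 0.68 ± 0.07 and 0.87 ± 0.20. Without the _x_at and _s_at probe sets the differences of RBL1 and YPEL3 were -0.30 and 1.43, and the gap of CCNG2 was 0.46. CDKN1C, the inhibitor p57, was higher by 0.94 ± 0.25, whereas CDKN1A, the inhibitor p21, was separated in the lower direction with a gap of 0.15. The p53 target list as a whole held 11 higher and 5 lower genes of 23. Its 2 members with a wide gap in the higher direction, SESN2 and GDF15, also stand in the ATF4 list, and the one in the lower direction was AEN, a nuclease (-0.74 ± 0.06). GDF15, a stress cytokine, differed by 0.65 ± 0.09 over 3 probe sets and by -0.049 without the probe sets that can bind several transcripts. The latter differed by 1.97 and 0.02.

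Lists of growth metabolism were lower with small gaps. Ribosome biogenesis and MYC targets had 21 of 25 genes lower and 0 higher, with a median difference of -0.29, and its widest gaps were in the nucleolar genes UTP15 (-0.68 ± 0.08) and RRP9 (-0.62 ± 0.07). Polyamine and nucleotide synthesis had 19 of 23 lower and 0 higher. CTPS1, which makes CTP, read -0.10 and -0.32 at 100K and 200K and -0.93 and -1.43 at 400K and 600K, and ODC1, the first enzyme of polyamine synthesis, differed by -0.54 ± 0.11. The opposite held for oxidative phosphorylation, where 21 of 26 subunit genes were higher and 0 lower, though 0 reached a gap of 0.5. The median difference of that list was 0.18. COX7B, a subunit of cytochrome oxidase, averaged 0.17 at 100K, 0.68 at 200K and 0.91 and 1.07 on the upper side, but its probe sets disagreed. One moved from 0.04 at 100K to 1.05 at 200K. The other was flat there, at 0.30 and 0.31, and read 0.53 and 0.70 at 400K and 600K.

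Targets of YAP and TAZ were mostly lower, 19 of 24, with 4 higher, a median difference of -0.55 and 5 at a gap of 0.5 or more. CCN2, the matricellular connective tissue growth factor, read -0.51 and -1.40 at 100K and 200K and -2.31 and -2.88 at 400K and 600K, a difference of -1.64 ± 0.38 or 3.11-fold lower. CCN1, its relative, read -0.50 and -1.66 at 100K and 200K and -2.39 and -2.53 at 400K and 600K. Both lay farther apart at 100K and 200K than at 400K and 600K. F3, tissue factor, read -0.50 and -1.12 at 100K and 200K and -1.84 and -2.51 at 400K and 600K. FJX1 read 0.01 and -0.17 at 100K and 200K and -0.85 and -1.29 at 400K and 600K, the latter near its 50K level on the lower side. YAP1 itself overlapped at -0.13 and -0.03 at 100K and 200K and 0.03 and -0.08 at 400K and 600K. In the list of Hippo kinases and polarity genes 12 of 26 were lower and 5 higher, 0 with a gap of 0.5, including NF2, an upstream activator of the pathway (-0.54 ± 0.15), and WWC1 (-0.39 ± 0.08). TEAD4, one of the factors YAP binds, was lower (a difference of -0.56 ± 0.10) and TEAD3 higher by 0.51 ± 0.13.

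TEAD factors bind the letters GGAATG, or CATTCC on the other strand. These stood in 11.9% of all 250-base windows and in 2 of the 4 windows found for the 5 YAP and TAZ targets with a wide gap, those of CCN2 and FOXF2. The CCN2 stretch is shown because it holds 3 copies, 169, 104 and 95 bases before the start, that do not overlap (minus strand of the genome, chr6:131951450-131951553). For E2F factors, which drive S phase genes, the letters TTTNNCGC, or GCGNNAAA, stood in 5.92% of windows. Of the 12 windows of 9 replication genes with a wide gap 1 (8.33%) held them, that of POLE2. CDC25A, outside the list and so not in that count, is an example picked from genes described here that hold the letters. They stood 44 bases before its start (minus strand, chr3:48188429-48188486). The matched letters are in capitals, 5′ to 3′ in the sense of each gene.
CCN2: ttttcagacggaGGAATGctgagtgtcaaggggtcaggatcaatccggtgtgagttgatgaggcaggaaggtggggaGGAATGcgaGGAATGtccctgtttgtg
CDC25A: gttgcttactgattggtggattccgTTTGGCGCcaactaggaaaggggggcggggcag

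TGF-beta and SMAD targets had 14 of 25 genes lower, 3 higher and 5 at a gap of 0.5 or more. PMEPA1, a feedback inhibitor of the pathway, read -0.88 and -1.71 at 100K and 200K and -2.83 and -3.21 at 400K and 600K, a difference of -1.72 ± 0.32 or 3.3-fold lower. ID3, TGFBI and THBS1 (thrombospondin 1) differed by -0.94 ± 0.16, -0.85 ± 0.16 and -1.09 ± 0.28. Without the _x_at and _s_at probe sets THBS1 differed by -0.65. Actin cytoskeleton and SRF targets had 19 of 27 lower and 2 higher, all with a gap under 0.5. TAGLN, transgelin, read 0.24 and -0.14 at 100K and 200K and -0.54 and -1.07 at 400K and 600K, MYH9, non-muscle myosin, differed by -0.60 ± 0.13 and VCL, vinculin, by -0.30 ± 0.06. TAGLN overlapped between the sides without the _x_at and _s_at probe sets, with a difference of -0.069. The TAGLN probe sets left out differed by -1.31 and -1.19. Among mesenchymal genes 13 of 25 were lower and 4 higher. FN1, fibronectin, read -0.58 and -1.04 at 100K and 200K and -1.55 and -1.87 at 400K and 600K, its step between 200K and 400K did not depart from a straight line in log2 density (0.00 ± 0.12, SE), and TWIST2 differed by -0.81 ± 0.11. The side difference of FN1 was -0.90 ± 0.20, and without the _x_at and _s_at probe sets it was -0.0028 and the sides overlapped. The FN1 probe sets left were flat between the sides (0.00 and -0.0057), and those left out differed by between -0.68 and -1.49. LOX, the collagen crosslinking enzyme, was higher by 0.66 ± 0.19. Integrins and laminins had 6 of 20 higher and 2 lower, beside 18.9% higher and 24.6% lower of all genes. The widest gap was in ITGA2, a collagen receptor chain, at -0.38 and -0.31 at 100K and 200K and 0.22 and 0.38 at 400K and 600K. ITGB8, another integrin chain, had a larger difference (0.82 ± 0.29, against 0.65 ± 0.08 for ITGA2).

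Junction genes were mostly higher, 21 of 28, with 2 lower and a median difference of 0.31. DSG3, a desmosomal cadherin, read 0.66 and 1.33 at 100K and 200K and 2.09 and 2.36 at 400K and 600K. CLDN7, a claudin of tight junctions, read 0.95 and 1.70 at 100K and 200K and 2.39 and 2.69 at 400K and 600K. OCLN, occludin, read 0.47 and 1.19 at 100K and 200K and 1.79 and 1.79 at 400K and 600K. In these 3 the 100K and 200K arrays were farther apart than the 400K and 600K arrays. GJB2, the connexin of epidermal gap junctions, read -0.42 and -0.21 at 100K and 200K and 0.43 and 1.27 at 400K and 600K, and DSC3 differed by 0.92 ± 0.20. CDH1, E-cadherin, was higher by 0.36 ± 0.15.

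Keratinocyte differentiation genes were higher in 31 of 47 and lower in 3, with a median difference of 0.29. A gap of 0.5 or more was found for 14 in the higher direction and for 1 in the lower. All of the 14 were higher still at 800K than at both upper densities, and the 1 was lower still. Among transcription factors GRHL3 read 1.07 and 2.20 at 100K and 200K and 3.31 and 3.44 at 400K and 600K. ELF3 read -0.50 and 1.03 at 100K and 200K and 1.98 and 2.20 at 400K and 600K. PRDM1 read 0.41 and 0.49 at 100K and 200K and 1.23 and 1.14 at 400K and 600K. Only one of its probe sets was separated, at 0.31 and 0.26 at 100K and 200K and 2.04 and 2.11 at 400K and 600K. ZNF750 and ELF3 were below their 50K level at 100K and above it at 200K. TGM1, a transglutaminase of the cornified envelope, read 0.80 and 2.03 at 100K and 200K and 3.29 and 4.11 at 400K and 600K, and the envelope proteins SPRR1B, PPL (periplakin) and CSTA (cystatin A) differed by 1.66 ± 0.33, 1.75 ± 0.49 and 0.89 ± 0.13. KRT15, a basal keratin, read 1.27 and 2.94 at 100K and 200K and 4.43 and 5.42 at 400K and 600K, and the peptidases KLK7 and KLK11 differed by 1.28 ± 0.41 and 0.98 ± 0.20. IVL (involucrin) and FLG (filaggrin), markers of later stages, overlapped. IVL read 0.09 and -0.16 at 100K and 200K and 0.01 and 0.16 at 400K and 600K. FLG read 0.02 and 0.01 at 100K and 200K and -0.10 and 0.07 at 400K and 600K.

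Secreted defence proteins were higher in 12 of 23 and lower in 2. S100A8 and S100A9 are the calprotectin subunits. S100A8 read 0.05 and 0.47 at 100K and 200K and 2.14 and 3.29 at 400K and 600K. S100A9 read 0.31 and 0.68 at 100K and 200K and 1.90 and 3.11 at 400K and 600K, close to its partner in every array. SERPINA3, an acute-phase protease inhibitor, read 0.58 and 1.58 at 100K and 200K and 3.11 and 4.27 at 400K and 600K, a difference of 2.61 ± 0.54 or 6.08-fold. CD14, a co-receptor for bacterial lipopolysaccharide, read 0.19 and 1.55 at 100K and 200K and 2.45 and 2.57 at 400K and 600K, MUC1, a membrane mucin, differed by 1.28 ± 0.31 and C3, a complement component, by 0.94 ± 0.23. PTX3, a soluble pattern receptor, was lower (a difference of -1.49 ± 0.38). Interferon-stimulated genes were higher in 23 of 34 and lower in 2, with IFITM1 (1.38 ± 0.28) and IFIT1 (1.16 ± 0.28) in front and IFI35 lower (-0.74 ± 0.08). NF-kB targets and cytokines held 11 higher and 2 lower of 31, none with a gap of 0.5. CCL28, an epithelial chemokine, was higher by 1.05 ± 0.34 and IL32 lower (a difference of -0.61 ± 0.12).

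EGF was supplied at the same dose in every dish. Of 25 genes of its receptor family, ligands and ERK feedback 12 were higher and 5 lower. ERRFI1, an inhibitor of the EGF receptor kinase, read -0.06 and 0.20 at 100K and 200K and 1.09 and 1.01 at 400K and 600K. DUSP6, an ERK phosphatase, read 0.17 and 0.16 at 100K and 200K and 0.72 and 1.10 at 400K and 600K, whereas DUSP4 was lower (a difference of -0.49 ± 0.07). HBEGF, a ligand, differed by 0.76 ± 0.06 with 2 of 4 probe sets pointing the same way. Immediate early genes were higher in 11 of 21 and lower in 2. EGR3 read -0.54 and 0.05 at 100K and 200K and 1.00 and 1.61 at 400K and 600K. EGR1 read 0.14 and -0.09 at 100K and 200K and 0.85 and 1.28 at 400K and 600K, with the 600K array above 400K in both. JUNB differed by 0.82 ± 0.18, and FOSL1 was lower (a difference of -0.82 ± 0.29). Glucocorticoid-induced genes were higher in 12 of 18 and lower in 1, at the same hydrocortisone dose. MAOA, monoamine oxidase A, read 0.20 and 1.31 at 100K and 200K and 2.21 and 2.95 at 400K and 600K. GLUL, glutamine synthetase, read 0.16 and 0.67 at 100K and 200K and 1.48 and 2.20 at 400K and 600K, and ZBTB16 differed by 1.09 ± 0.25. The difference of GLUL was 1.43 ± 0.32, and 0.95 without the _x_at and _s_at probe sets. TSC22D3 differed by 1.11 ± 0.19 over 3 probe sets and by -0.0096 without those that can bind several transcripts. The latter differed by 1.35 and 2.00, and the TSC22D3 probe set left was nearly flat, at 0.05 at 100K and 0.03 at 600K.

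Lipid and redox genes were divided. Fatty acid synthesis genes were higher in 8 of 15 and lower in 1, with ACSS2, which makes acetyl-CoA from acetate, at 0.26 and 0.69 at 100K and 200K and 1.37 and 1.81 at 400K and 600K and ACSL1 differing by 1.13 ± 0.24. Cholesterol synthesis genes were lower in 9 of 19 and higher in 3, 0 of them with a gap of 0.5. NSDHL was lower (a difference of -0.46 ± 0.08) and TM7SF2 higher by 0.52 ± 0.10. Of 23 NRF2 targets 11 were higher and 6 lower. AKR1B10 and AKR1C3 are aldo-keto reductases. AKR1B10 read 0.01 and 1.21 at 100K and 200K and 1.91 and 2.62 at 400K and 600K. AKR1C3 read -0.06 and 0.31 at 100K and 200K and 1.09 and 1.87 at 400K and 600K, while SRXN1, sulfiredoxin, was lower (a difference of -0.49 ± 0.07). Glycolysis and hypoxia genes were close to even, 9 higher and 8 lower of 30, beside 18.9% higher and 24.6% lower of all genes. ADM (adrenomedullin, -1.15 ± 0.25) was lower and VEGFA higher. Lysosome and autophagy genes were higher in 10 and lower in 6 of 26, with the widest gap in the kinase ULK1 (0.68 ± 0.11) and a larger difference in CTSD, the protease cathepsin D (0.93 ± 0.28).

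Circadian clock genes were higher in 8 and lower in 3 of 16, with CRY1 lower (a difference of -0.97 ± 0.32) and NPAS2 higher by 0.75 ± 0.15. Notch genes held 5 higher and 6 lower of 20, and Wnt genes 4 higher and 11 lower of 29. Over all genes 18.9% were higher and 24.6% lower, so the Notch counts were close to those shares. In the Notch list HES4 was lower (a difference of -0.54 ± 0.10) and HES1 higher by 0.49 ± 0.10, or by 0.11 without the _x_at and _s_at probe sets. In the Wnt list WNT10B was lower (a difference of -0.43 ± 0.07) and FZD6 higher by 0.37 ± 0.08.

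**Figure D3:**
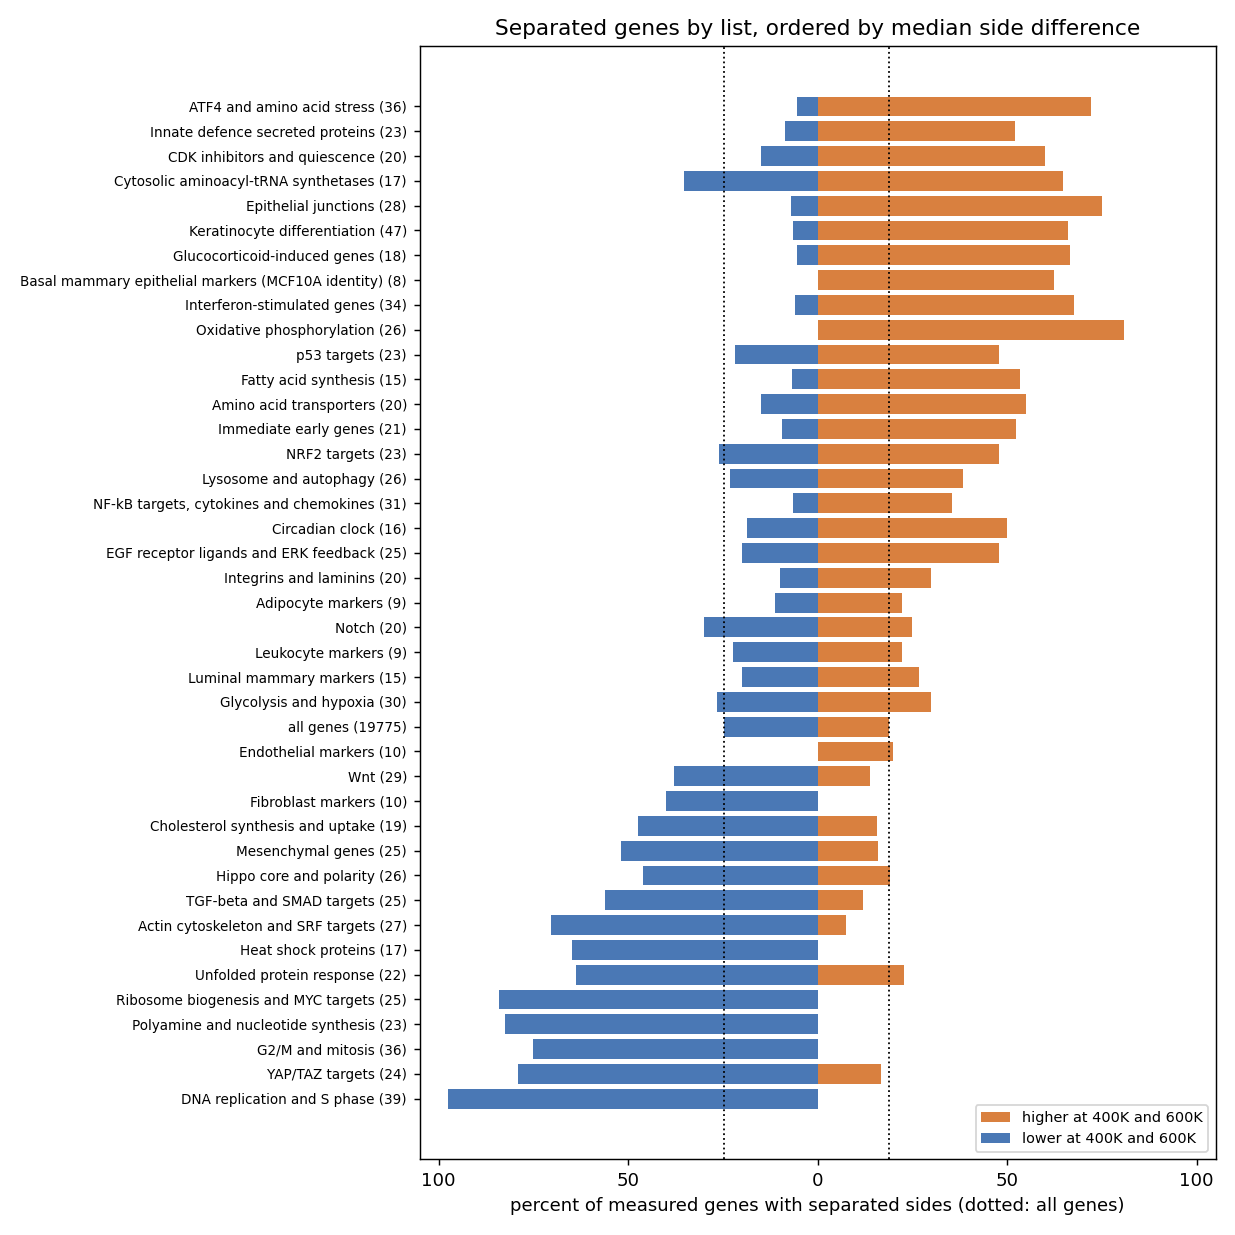
Percent of the measured genes of each list (number in brackets) whose sides were separated, higher at 400K and 600K to the right in orange and lower to the left in blue, ordered by the median side difference. Dotted lines mark the same percentages over all 19775 genes, 18.9 higher and 24.6 lower, and the bars of DNA replication on the left and oxidative phosphorylation on the right reach farthest.

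Ratios to the 50K dish cannot show whether a marker is present, so the cell type was not checked by level. Of 15 basal mammary markers 8 were measured, of which 5 were higher and 0 lower, with KRT14 at a gap of 0.52. Luminal markers held 4 higher and 3 lower of 15, fibroblast markers 0 higher and 4 lower of 10, endothelial markers 2 higher and 0 lower of 10, leukocyte markers 2 higher and 2 lower of 9 and adipocyte markers 2 higher and 1 lower of 9. Among the last 4 lists 1 gene, CD14, reached a gap of 0.5. Over all genes 18.9% were separated and higher and 24.6% lower. The ACTB 3′ minus 5′ probe set difference, an index of RNA integrity, was -0.02 and 0.04 at 100K and 200K and 0.17 and 0.22 at 400K and 600K, while that of GAPDH stayed between -0.05 and 0.07. The part of the ACTB trend in these results was not tested.

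The 800K array shows which of these separations lasted. Of the 225 genes higher with a gap of 0.5 or more, 146 were higher still at 800K than at both upper densities, 32 lay between the 2 upper arrays, 43 between the sides and 4 back in or past the lower side. Of the 149 lower genes 100 were lower still, 33 lay between the upper arrays and 16 between the sides. In the ATF4 list 14 of the 18 wide-gap genes (77.8%) fell short of both upper arrays at 800K, beside 20.9% of all wide-gap genes on the higher side. For the 10 replication genes and the 14 keratinocyte genes of the higher direction the same count was 0. KLHL24 was the one gene of the 18 that was higher at 800K (1.26) than at 400K and 600K. These counts were not tested.

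Among protein-coding genes with a gap of 0.5 or more, those that came back farthest at 800K were CHAC1, SLC7A11, KIF21B and MTHFD2. KIF21B, a kinesin, read 0.60 and 0.02 at 100K and 200K and 2.22 and 1.64 at 400K and 600K, and 0.14 at 800K. STC2, a secreted glycoprotein of the ATF4 list picked here after its values were seen, read -0.26 and -0.29 at 100K and 200K and 1.55 and 0.22 at 400K and 600K, and -1.28 at 800K. Among lower genes EVA1A, HSPA2, IRS1 and TSPAN33 came back farthest. HSPA2 read -0.37 and -0.35 at 100K and 200K and -1.14 and -1.37 at 400K and 600K, and -0.72 at 800K, while IRS1, the insulin receptor substrate, read -0.65 and -0.62 at 100K and 200K and -1.33 and -1.16 at 400K and 600K, and -0.80 at 800K. In the order of density over all 6 arrays, 84 of the 225 higher and 62 of the 149 lower genes never turned back.

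**Figure D4:**
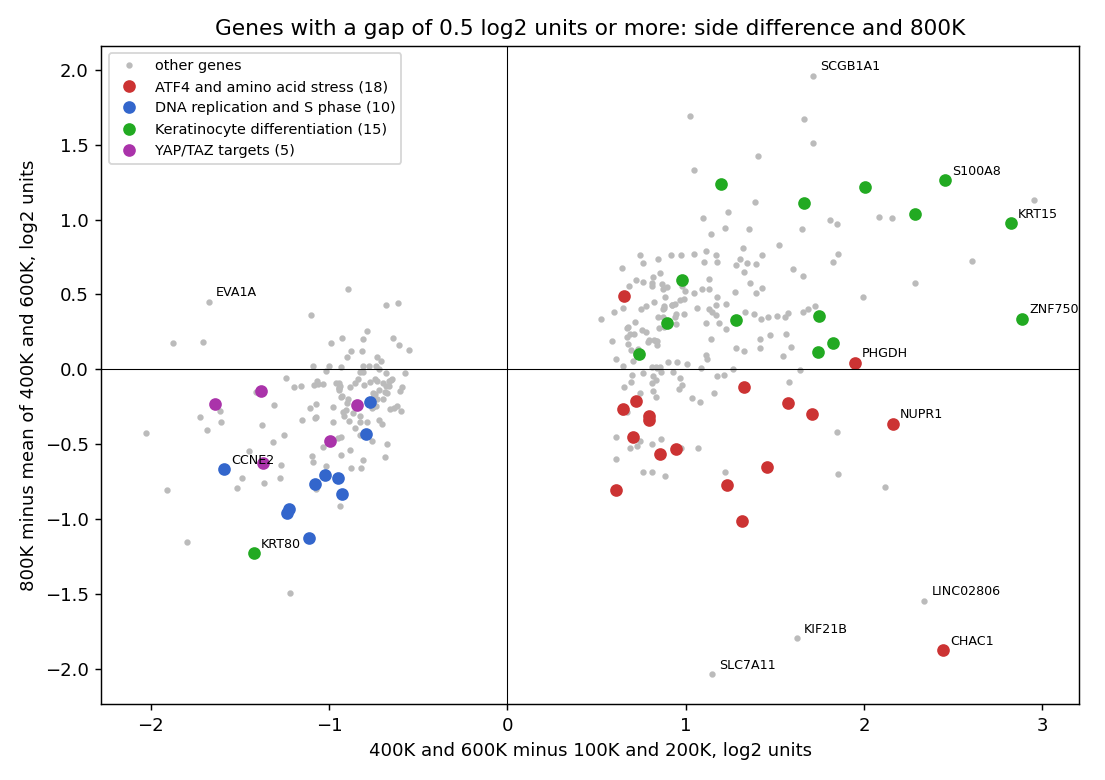
Each point is 1 of the 374 genes with a gap of 0.5 or more: the side difference on the horizontal axis and the 800K value minus the mean of 400K and 600K on the vertical axis, both in log2 units. Points of the ATF4 list lie mostly below the horizontal line on the right (higher, then back towards the lower side), keratinocyte points on the right lie above it, and replication points on the left lie below it (lower, then lower still).

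Whether the change between 200K and 400K was larger than a straight line in log2 density would give was tested over all 6 arrays. No gene passed in limma (0%, smallest adjusted p 0.989), and 948 genes lay under an unadjusted p of 0.05. As a description, the step beyond the trend was largest in CHAC1, LINC02806 and SLC7A11 among separated genes, at 2.87 ± 1.36, 2.66 ± 0.95 and 2.30 ± 1.05 log2 units (SE). LINC02806 is a long non-coding RNA with 2 of its 3 probe sets pointing that way, a side difference of 2.34 ± 0.16, 1.49 without the _x_at and _s_at probe sets, and a value at 800K of 0.81. The largest negative steps were in ARSI (-1.80 ± 0.53), LINC00880 (-1.41 ± 0.31) and DPEP3 (-1.36 ± 0.48), in all of which the 200K array stood above its neighbours. Between neighbouring densities, differences of 2-fold or more numbered 25 higher and 25 lower from 50K to 100K, 31 and 21 from 100K to 200K, 49 and 14 from 200K to 400K, 19 and 17 from 400K to 600K, and 19 and 19 from 600K to 800K. The last 2 steps were 1.5-fold and 1.33-fold in cells plated and the first 3 were 2-fold, so the counts are not on equal steps.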

How the data were processed

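MCF10A RNA from 6 plating densities was measured on 1 array each, from 200 ng of total RNA. The authors deposited a linear expression ratio of each array to the 50K array for 54675 probe sets, per the values themselves (the 50K column is 1 throughout). Per the submitters' processing notes, RMA (robust multi-array average) was used, and its settings are not given in the sources used here. RMA compresses the differences of dim probe sets. Controls (62) and probe sets with several symbols or none were dropped, log2 ratios of 41091 probe sets were averaged to 19775 genes, and no filter on low values was possible or used. Differences were tested with limma 3.58.1 in R 4.3.3 (empirical Bayes, Benjamini-Hochberg over all genes), with 2 arrays a side or, for the step, all 6 arrays. The procedure was tested on simulated data. The alternatives were other probe sets, median centring, left-out arrays, 3 arrays a side, a block and robust variances.

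The comparison, the gene lists and the named genes were chosen with earlier results of these data known. Named were the 12 genes with the widest gap in each direction, up to 4 per list, the 3 largest steps and the 4 largest returns at 800K in each direction, and genes at the edge of separation. Other genes named were picked after their values were seen. All 40 lists are reported. Probe sets were named through the platform annotation, updated by gene identifier where the RefSeq table held it. Promoter sequences are from RefSeq, build GRCh38.p14.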

Additional observations from a re-analysis of the deposited data

How the results depend on the processing

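No gene passed the limma test of the side difference as reported, after median centring, with robust variances, or without the _x_at and _s_at probe sets. With the position in the side as a block 1108 genes were higher and 1344 lower, and with 50K and 800K added (3 arrays a side) 908 and 1351. Leaving out each array in turn gave 0 to 90 higher and 0 to 60 lower genes, all of them without 200K, where 100K is a lone array assumed to vary like the upper side. The step test called 0 genes under each alternative. Separated genes numbered 1830 higher and 2387 lower at a gap of at least 0.1, 225 and 149 at 0.5, and 37 and 10 at 1. Taken singly, 7431 probe sets were higher and 9405 lower. Signs were compared for named genes only. Of the 189 with other probe sets, 5 turned in sign without the _x_at and _s_at probe sets. Their differences were then 0.0062 for COL1A2, -0.049 for GDF15, 0.20 for IDI1, -0.0034 for SLC1A4 and -0.0096 for TSC22D3. Of the 374 genes with a gap of 0.5 or more, 299 had other probe sets and 268 had such a gap on those alone. The rest of the 374, with ZNF750, SLC6A9, NUPR1, EVA1A and SPHK1 among them, could not be checked this way. For ASNS, FN1, SLC1A4, TAGLN and TSC22D3 the probe sets left were nearly flat between the sides. Whether those probe sets respond at all was not tested. The cause was not tested. Over the 4 left-out arrays FLG ranged from -0.12 to 0.055, turning without 400K, and IVL from -0.0024 to 0.24, turning without 200K. The labels give no replicate numbers, so the block above pairs arrays by their order of density within a side and not replicates. The number of arrays, 1 per density, limits the precision.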

Other observations

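Several genes with wide gaps belong to none of the lists and were picked here after their values were seen. AHR, the aryl hydrocarbon receptor, read 0.06 and 0.28 at 100K and 200K and 1.43 and 1.08 at 400K and 600K, and 1.03 at 800K. CCNA1, the germline A-type cyclin, read 0.15 and 0.51 at 100K and 200K and 1.67 and 2.15 at 400K and 600K, opposite in direction to the S phase genes. PNRC1, a nuclear receptor coactivator, and CREBRF, a regulator of the factor CREB3, were higher by 1.31 ± 0.17 and 0.98 ± 0.16 log2 units (SE, 2 arrays a side). ASS1, which makes argininosuccinate from citrulline and aspartate, read 0.81 and 1.51 at 100K and 200K and 2.47 and 2.99 at 400K and 600K. The secreted proteins AZGP1 and SCGB1A1 were higher by 1.86 ± 0.31 and 1.71 ± 0.33, and SCGB1A1 was farther from its lower side at 800K (4.14). AQP3, a water and glycerol channel, differed by 1.28 ± 0.29, CFI, a complement regulator, by 1.52 ± 0.20 and KLRC3, known as a receptor of natural killer cells, by 1.41 ± 0.10.

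The tubulin genes TUBA4A and TUBB2A had nearly the same course. TUBA4A read -0.29 and -0.64 at 100K and 200K and -1.44 and -2.22 at 400K and 600K. TUBB2A read -0.32 and -0.68 at 100K and 200K and -1.47 and -2.15 at 400K and 600K. ECM2, a matrix protein, read -0.28 and 0.17 at 100K and 200K and 1.90 and 1.70 at 400K and 600K, but only 1 of its 2 probe sets pointed that way. PXK, a kinase-like protein, was higher by 0.88 ± 0.08 and was at 0.04 at 800K.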
